A study of Mus musculus with 12 samples.

Results

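The neuropilins and plexins are the receptors through which semaphorins steer axons and migrating neurons. The 10 genes described here, 2 neuropilins (Nrp1 and Nrp2) and 8 plexins (Plxna1, Plxna2, Plxna3, Plxna4, Plxnb1, Plxnb2, Plxnc1 and Plxnd1), were taken by gene symbol from a table of 23079 genes. All 10 were in the table, and all 10 were among the 14732 genes that passed the filter on low counts. They were followed across 12 RNA sequencing libraries of mouse pontine nucleus neurons, in a study that by its title concerns Hoxa5 and the formation of subsets of these nuclei.

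Neuropilins bind secreted class 3 semaphorins but have only a short cytoplasmic tail, and they signal together with class A plexins or, in endothelium, with VEGF receptors. Nrp1 is the classical receptor for Sema3A and Nrp2 for Sema3F, so the proportion of the neuropilins bears on which class 3 semaphorin a growth cone can read. Plexins carry a GTPase-activating domain in their cytoplasmic part and relay the signal to the cytoskeleton. Class A plexins also bind class 6 semaphorins directly, class B plexins bind class 4 semaphorins, Plexin-C1 binds Sema7A, and Plexin-D1 binds Sema3E without needing a neuropilin. Pontine neurons arise from the rhombic lip, migrate along the surface of the hindbrain and send mossy fibres to the cerebellum.

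All groups share the CD-1 strain, stage E18.5, shortly before birth, and the pontine nucleus as tissue. Genetically labelled neurons were sorted at 2000 cells per replicate, and the RNA of 1000 of these, as cell equivalents, went into SPIA amplification. The series has 6 reference libraries titled Math1tdTomato, 3 titled Hoxa5tdTomato and 3 titled Math1Hoxa5-IRES-GFP. Math1, now Atoh1, is a rhombic lip transcription factor, and Hoxa5 is a homeobox gene of the posterior hindbrain and spinal cord. In the count table, 3 reference columns name Math1 and creErt2 and 3 name Math1 and tdT, the Hoxa5tdTomato columns name Hoxa5 and cre, and the Math1Hoxa5-IRES-GFP columns name Math1, Cag, lsl and Hoxa5. From these words, Hoxa5tdTomato was compared here with the creErt2 references and Math1Hoxa5-IRES-GFP with the tdT references. No label states that pairing, and the labels used here do not describe the alleles, the number of embryos per sample or when any recombinase was active. Nor do they say whether replicates are separate litters, so p-values measure the spread between these samples, which may be technical. Because the cells were chosen by a genetic label, a difference between groups can lie in which cells were sorted or in the RNA of the same cells, and these cannot be told apart; in bulk samples, likewise, fewer cells of a type and less RNA per cell cannot be told apart.

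Total counts ran from 9973484 to 13302076 per library among the Hoxa5tdTomato libraries and creErt2 references, and from 22355961 to 29820776 among the other 6, so depth cannot be told apart from the set. Levels are given as CPM, counts scaled to a common library size with TMM factors in edgeR, and as CPM per kb of gene length where genes are compared with each other. Math1Hoxa5-IRES-GFP replicate 3 stood apart: its log2 CPM over all genes correlated with its own group at r of 0.860 and 0.868, against 0.926 to 0.943 within the other 3 groups. Hoxa5 itself stood at 127, 222 and 119 CPM in Hoxa5tdTomato against 8.79, 8.62 and 23.1 in the creErt2 references, without overlap, at a log2 fold change of 3.53 ± 0.80 (SE) and an adjusted p of 0.0698 in the edgeR quasi-likelihood test. In the libraries labelled Math1Hoxa5-IRES-GFP it stood at 9.73, 16.8 and 82.0 CPM against 8.06, 4.35 and 32.2 in the tdT references, with overlap and an adjusted p of 0.475, so the counts of Hoxa5 do not separate these libraries from their references. Among 14 markers of the labelled tissue, the glutamate transporter gene Slc17a6 lay between 286 and 506 CPM in every library. Of the same list, Atoh1 lay between 0.14 and 19.2 CPM and Slc17a7 did not exceed 1.08 CPM. The sum of the 14 was lower in Hoxa5tdTomato, at 8734 to 9001 CPM against 11692 to 12486 CPM in the creErt2 references. Nfib and Nfix of this list were called lower in Hoxa5tdTomato in the edgeR test, and the other 12 were not called. Of all tested genes, 0.265% were called lower there. Much of the lower sum lay in these genes. Mean Nfib was 3095 CPM in Hoxa5tdTomato against 5367.5 in the creErt2 references, and mean Nfix 764 against 1352.5. Stmn2, Rbfox3, Atoh1 and Slc17a7 had higher means in Hoxa5tdTomato. In Math1Hoxa5-IRES-GFP 0 of the 14 were called, against 0.862% of all tested genes. Of the genes of GABA synthesis, Gad1 did not exceed 3.80 CPM and Gad2 lay between 108 and 323 CPM. Slc32a1, the vesicular transporter of GABA and glycine, did not exceed 4.85 CPM.

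The sequences around the annotated start of the 3 genes that passed the test in Hoxa5tdTomato are shown, because homeodomain proteins bind TAAT cores and these genes changed in the libraries titled for Hoxa5. Each window holds 250 bases before and 50 after the start used in the RefSeq promoter table of build GRCm38.p6, 5′ to 3′ on the strand of the gene, with TAAT on either strand in capitals. They lie at chr8:128358823-128359122 on the plus strand for Nrp1, chr1:62703067-62703366 on the plus strand for Nrp2 and chr6:115994956-115995255 on the minus strand for Plxnd1. The Nrp1 and Plxnd1 windows begin inside the annotated genes, since for these the table uses a start downstream of the first annotated base.
Nrp1: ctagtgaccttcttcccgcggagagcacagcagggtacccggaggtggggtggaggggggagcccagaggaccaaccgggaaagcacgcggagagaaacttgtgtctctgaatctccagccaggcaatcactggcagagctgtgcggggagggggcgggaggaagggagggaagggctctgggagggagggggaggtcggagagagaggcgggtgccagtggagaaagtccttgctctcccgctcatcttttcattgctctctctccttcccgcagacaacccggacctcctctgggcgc
Nrp2: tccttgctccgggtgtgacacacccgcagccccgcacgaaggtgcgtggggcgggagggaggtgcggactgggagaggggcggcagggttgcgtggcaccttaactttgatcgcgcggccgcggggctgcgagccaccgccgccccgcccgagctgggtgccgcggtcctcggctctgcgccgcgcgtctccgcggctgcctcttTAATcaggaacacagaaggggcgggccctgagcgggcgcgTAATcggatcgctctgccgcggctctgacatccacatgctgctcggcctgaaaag
Plxnd1: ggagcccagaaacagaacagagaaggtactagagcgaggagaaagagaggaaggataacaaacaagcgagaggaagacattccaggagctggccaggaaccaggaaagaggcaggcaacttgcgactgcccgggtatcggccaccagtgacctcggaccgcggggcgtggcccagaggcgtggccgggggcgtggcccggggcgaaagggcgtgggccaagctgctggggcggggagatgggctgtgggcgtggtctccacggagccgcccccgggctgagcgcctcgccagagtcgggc
The Nrp2 window held TAAT at 2 places and the Nrp1 and Plxnd1 windows at 0. A window of this kind held TAAT in 58.0% of the 32851 promoters of the table. Of the 8 genes of the family with an entry, Nrp2, Plxna2, Plxnb1 and 1 of 2 windows of Plxnb2 held it. TGATNNAT, a form of the motif of HOX and PBX proteins searched on both strands, was in none of the windows of these 8 genes and in 8.85% of all promoters. The GC content was 64.0% for Nrp1, 70.7% for Nrp2 and 67.0% for Plxnd1, against a median of 52.7%. These matches describe letters only and are no evidence that a factor binds or does not bind.

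Among the neuropilins, Nrp2 was higher in both conditions than in their references, and Nrp1 was lower in Hoxa5tdTomato. The Nrp1 gene (chromosome 8, 128358591 to 128505476, plus strand, GRCm38.p6) gave 310.2, 357 and 424 CPM in Hoxa5tdTomato and 749, 779 and 757 CPM in the creErt2 references. All 3 Hoxa5tdTomato libraries lay under all 3 references, with the highest of the former well under the lowest of the latter. The log2 fold change was -1.07 ± 0.14 (SE), a level of 0.478 of the references, with a Benjamini-Hochberg adjusted p of 0.00246 over all genes in the edgeR quasi-likelihood test. Nrp1 in Math1Hoxa5-IRES-GFP was 506, 632 and 668 CPM against 935, 846 and 925 CPM in the tdT references. These groups did not overlap either, but the log2 difference of -0.58 ± 0.14 missed the threshold of 0.05 with an adjusted p of 0.0676. It passed under 4 of 20 alternative settings, among them leaving out Math1Hoxa5-IRES-GFP replicate 3.

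Nrp2 (chromosome 1, 62703317 to 62818692, plus strand) gave 118, 203 and 181 CPM in Hoxa5tdTomato and 47.2, 50.02 and 54.0 CPM in the creErt2 references. The lowest Hoxa5tdTomato library was more than double the highest reference. The log2 fold change was 1.73 ± 0.24, or 3.32-fold, with an adjusted p of 0.00349. In Math1Hoxa5-IRES-GFP, Nrp2 was 261, 384 and 328 CPM against 64.8, 63.5 and 108 CPM in the tdT references. Again no library of one group reached the other, and tdT reference replicate 3 was the highest of all 6 references. The rise was 2.04 ± 0.24 on the log2 scale, or 4.12-fold, with an adjusted p of 6.8e-04, and Nrp2 stood 8th by p among all 14732 genes. Nrp2 was the single family member past the threshold in the same direction in both comparisons, as were 26 genes, or 0.176% of those tested. Both Nrp2 calls and the Nrp1 call in Hoxa5tdTomato held under all 20 alternative settings. Whether the effect differed between the comparisons was tested as an interaction, and for Nrp2 the difference of -0.31 ± 0.33 had an adjusted p of 0.862.

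**Figure D1:**
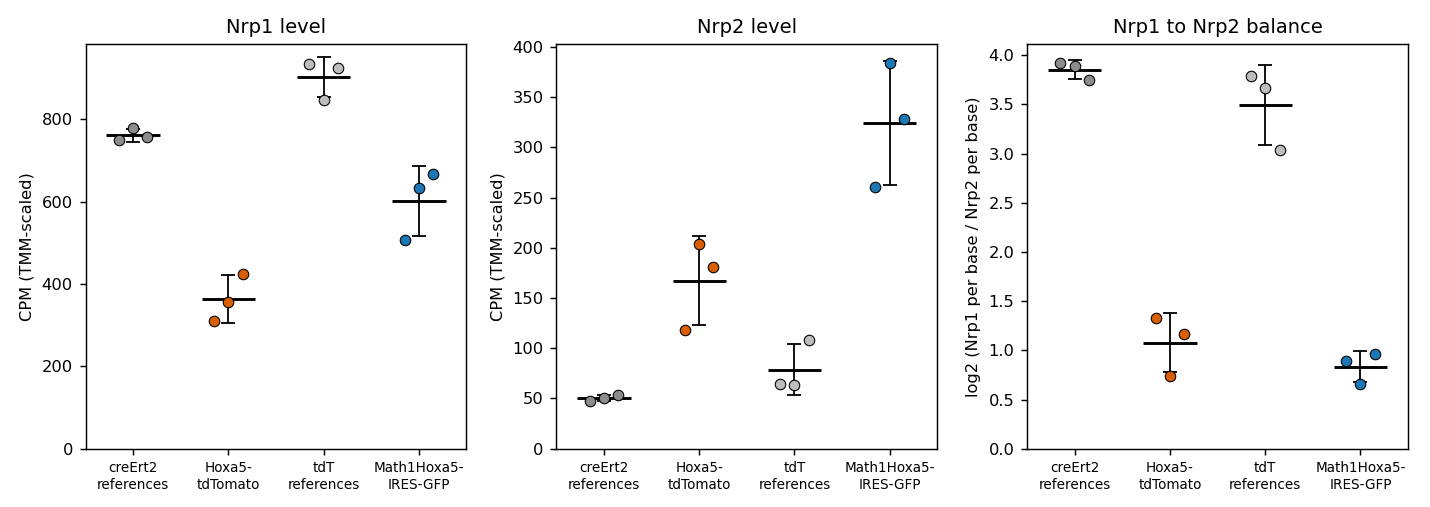
Levels of Nrp1 (left) and Nrp2 (middle) in TMM-scaled CPM and the log2 ratio of Nrp1 to Nrp2 per base of gene length (right) in each library; points are libraries, thick bars group means and whiskers 1 SD over 3 libraries. Hoxa5tdTomato libraries lie at 310.2 to 424 CPM for Nrp1, below their references at 749 to 779, and both conditions lie above every reference for Nrp2 and below every reference for the ratio.

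Per base of gene length, Nrp1 reads outnumbered Nrp2 reads in every library, by a wide margin in the references and a narrow one in both conditions. The ratio of Nrp1 to Nrp2 was 15.1, 14.9 and 13.4 in the creErt2 references and 2.52, 1.67 and 2.24 in Hoxa5tdTomato. It was 13.8, 12.7 and 8.19 in the tdT references and 1.85, 1.57 and 1.94 in Math1Hoxa5-IRES-GFP. Counting error is small beside these gaps: the 95% Clopper-Pearson interval was 7.85 to 8.53 for the lowest reference (tdT replicate 3) and 2.36 to 2.68 for the highest condition library (Hoxa5tdTomato replicate 1). Such intervals reflect counting alone: the cDNA was amplified and carried no molecular identifiers, so reads are not separate molecules. As a share of the neuropilin total, Nrp2 made up 6.19% to 6.95% in the creErt2 references, 28.4% to 37.4% in Hoxa5tdTomato, 6.76% to 10.9% in the tdT references and 33.96% to 38.9% in Math1Hoxa5-IRES-GFP.

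On the log2 scale the balance averaged 3.85 ± 0.10 (SD, n = 3) in the creErt2 references and 1.08 ± 0.30 in Hoxa5tdTomato, a difference of -2.77 that corresponds to a 6.84-fold lower ratio. It averaged 3.496 ± 0.41 in the tdT references and 0.83 ± 0.16 in Math1Hoxa5-IRES-GFP, a difference of -2.66 or a 6.33-fold lower ratio. Each of these gave p = 0.1 in a two-sided exact permutation test (0.15 adjusted over 3 comparisons), which is the smallest p that 3 libraries against 3 allow. The references of both kinds overlapped in balance, with a difference of 0.36 and an exact p of 0.2. Against all 6 references pooled, the difference was -2.60 for Hoxa5tdTomato and -2.84 for Math1Hoxa5-IRES-GFP, each with an exact permutation p of 0.0119, the smallest that 3 against 6 allow. The pooled test treats libraries of both sets as exchangeable, although the sets differ in depth and column name. The ratio within a library needs no scaling between libraries.

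The sum of Nrp1 and Nrp2 was 43.1 to 61.0 CPM per kb in Hoxa5tdTomato against 79.3 to 82.6 in the creErt2 references, without overlap. In Math1Hoxa5-IRES-GFP it was 77.4 to 102.7 CPM per kb against 90.7 to 103.1 in the tdT references, with overlap. In Hoxa5tdTomato Nrp1 fell by 1.07 on the log2 scale while the far smaller Nrp2 pool rose, so the sum was lower. The interaction for Nrp1, -0.48 ± 0.20, had an unadjusted p of 0.0255 and an adjusted p of 0.585, so a difference between the comparisons was not shown.

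Across all 10 members, 2 were called higher and 1 lower in Hoxa5tdTomato, against 0.292% of all tested genes called higher and 0.265% called lower. In Math1Hoxa5-IRES-GFP, 2 of 10 were called higher and 0 lower, against 0.536% and 0.326% of all tested genes. The libraries of Hoxa5tdTomato and its references did not overlap for 4 members that were higher and 2 that were lower, where 12.7% of all genes did so in the higher and 12.7% in the lower direction. For Math1Hoxa5-IRES-GFP the same count was 2 higher and 3 lower, against 6.01% and 6.46%. The members were chosen with earlier results of these data known, so these counts describe the chosen genes and are no test of the family. Plxnb3, a plexin outside the 10, was tested and not called in either comparison. The median log2 fold change of the family was 0.14 in Hoxa5tdTomato, against -0.01 over all genes, and -0.05 in Math1Hoxa5-IRES-GFP, against 0.02 over all genes. In the interaction 0 of 10 members, and 0% of the 14732 genes, passed in the edgeR quasi-likelihood test, where 1181 genes had an unadjusted p under 0.05 and DESeq2 called 54.

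**Figure D2:**
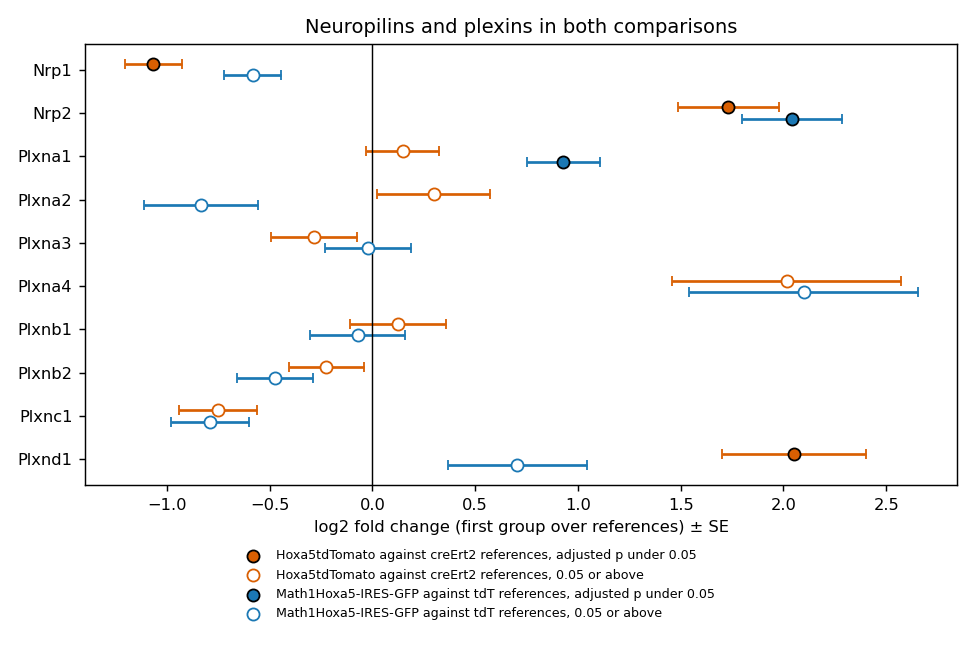
Log2 fold change of each neuropilin and plexin against its references, with whiskers of 1 SE from the fit over 12 libraries; filled symbols have an adjusted p under 0.05. Nrp2 is filled at 1.73 and 2.04, Nrp1 and Plxnd1 are filled for Hoxa5tdTomato (-1.07 and 2.05), and Plxna1 is filled for Math1Hoxa5-IRES-GFP (0.93).

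The class A plexins are the signalling partners of neuropilins. Plxna1 (chromosome 6, 89316313 to 89362613, minus strand) gave 307, 258 and 274 CPM in Math1Hoxa5-IRES-GFP and 121, 166 and 155 CPM in the tdT references. All 3 condition libraries lay above all 3 references, at 0.93 ± 0.18 on the log2 scale, or 1.90-fold, with an adjusted p of 0.0197. The call was lost in a fit of only these 6 libraries (adjusted p 0.198), with the replicate number as a block (0.0693), and without tdT reference replicate 1 (0.117) or 3 (0.0837), while the value stayed between 0.81 and 1.02 over all 20 settings. In Hoxa5tdTomato Plxna1 was 184, 133 and 177 CPM against 125, 161 and 160.3 CPM, overlapping, with a log2 fold change of 0.15 ± 0.18 and an adjusted p of 0.942. The interaction was -0.78 ± 0.25, with an unadjusted p of 0.00685 and an adjusted p of 0.546.

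Plxna4 (chromosome 6, 32144543 to 32588192, minus strand) encodes the class A plexin that serves Sema3A and Sema6 signalling in several sensory and central axons. It was the scarcest member per kb in the references, and its log2 fold changes had the largest standard errors of the 10 members in both comparisons. In Hoxa5tdTomato it was 132, 120.0 and 101.002 CPM against 18.9, 32.6 and 35.8 CPM in the creErt2 references, so each condition library was far above each reference. The log2 fold change of 2.02 ± 0.56 had an adjusted p of 0.163, and it passed under 4 of 20 alternatives, among them a fit of only these 6 libraries (7.9e-06) and leaving out Math1Hoxa5-IRES-GFP replicate 3 (0.0210). In Math1Hoxa5-IRES-GFP Plxna4 was 193, 76.8 and 39.3 CPM against 17.5, 46.1 and 8.70 CPM in the tdT references. Replicate 3 lay under the highest reference and overlapped. The value of 2.10 ± 0.56 had an adjusted p of 0.0994, which was 0.00671 without that replicate and 0.0297 without tdT reference replicate 2. Reads of an antisense gene could not be separated where counting ignored strand. Plxna4os1, an antisense partner in the table, held 163 counts over all libraries, which sets no limit on antisense reads counted for Plxna4. Plxna4os2 and Plxna4os3, also antisense, were not among the counted genes. The part of antisense reads in the Plxna4 values was not tested. Antisense genes that were not counted also overlap Nrp2 (Gm29083), Plxna1 (Gm26811) and Plxnb1 (Gm7628). The same limit holds for the values of these members, and the part of antisense reads in them was not tested.

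Plxna2 (chromosome 1, 194619791 to 194816869, plus strand), a receptor for Sema6A, had differences of opposite sign in the comparisons, neither past the threshold. It was 406, 316 and 363 CPM in Hoxa5tdTomato against 312, 264 and 307 CPM in the creErt2 references, higher in all 3 but with an adjusted p of 0.885 for 0.30 ± 0.28. It was 358, 204 and 135 CPM in Math1Hoxa5-IRES-GFP against 278, 508 and 459 CPM in the tdT references, overlapping through replicate 1 on one side and tdT replicate 1 on the other. The log2 difference was -0.84 ± 0.28 with an adjusted p of 0.197. Without Math1Hoxa5-IRES-GFP replicate 1 it was -1.29 with an adjusted p of 0.0177. The interaction of 1.13 ± 0.39 had an unadjusted p of 0.0109 and an adjusted p of 0.556. Plxna3 (chromosome X, 74328290 to 74344689, plus strand), which works with Nrp2 in Sema3F signalling, ranged from 192 to 438 CPM over all libraries, with log2 differences of -0.29 ± 0.21 (adjusted p 0.815) and -0.02 ± 0.21 (0.978).

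Within the class A pool, measured per kb, Plxna4 took 2.14% to 3.26% in the creErt2 references and 9.10% to 11.5% in Hoxa5tdTomato. It took 0.657% to 3.47% in the tdT references and 12.8%, 6.94% and 2.91% in Math1Hoxa5-IRES-GFP replicates 1 to 3, the last within the range of the references. Plxna1 took 28.3% to 32.6% in Math1Hoxa5-IRES-GFP, above the 14.6% to 17.4% of the tdT references, and 17.8% to 22.3% in Hoxa5tdTomato, around the 19.7% to 21.6% of the creErt2 references. Plxna2 and Plxna3 together filled most of the pool in the references. In Math1Hoxa5-IRES-GFP their shares ran in opposite order, with Plxna2 at 26.6%, 20.7% and 11.2% and Plxna3 at 32.1%, 39.8% and 57.6%. These shares are a description, with no test.

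**Figure D3:**
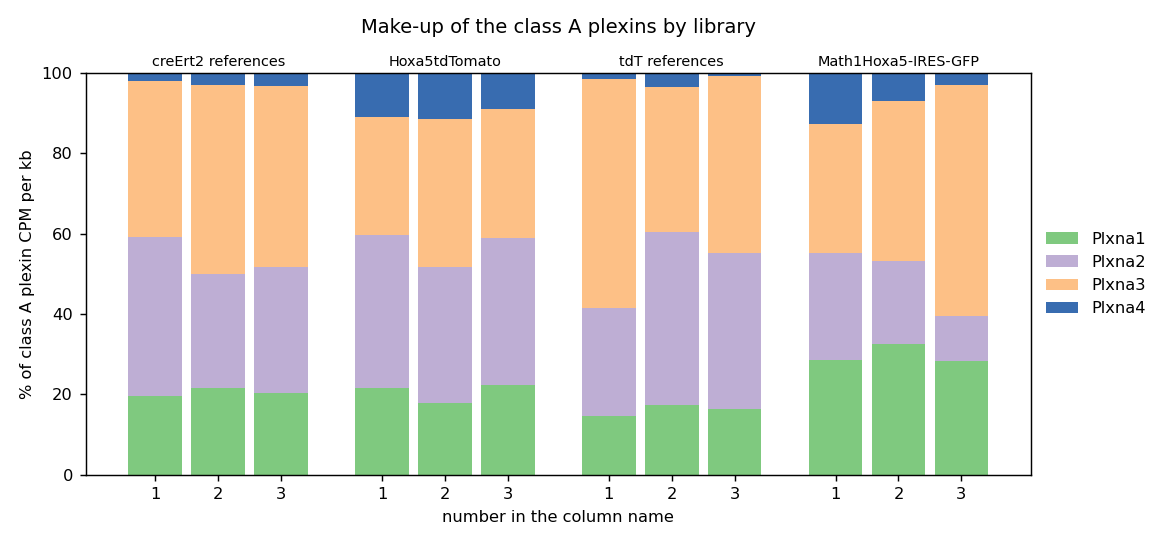
Share of each class A plexin in the summed class A CPM per kb of every library, stacked to 100%; the x axis gives the number in the column name within each of the 4 groups. Plxna4 takes 9.10% to 11.5% in Hoxa5tdTomato against 2.14% to 3.26% in the creErt2 references, and Plxna1 takes 28.3% to 32.6% in Math1Hoxa5-IRES-GFP against 14.6% to 17.4% in the tdT references.

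Plxnd1 (chromosome 6, 115954811 to 115995339, minus strand), best known as the Sema3E receptor of developing blood vessels and also present in subsets of neurons, rose in Hoxa5tdTomato. It was 126, 149 and 134 CPM there and 34.5, 31.9 and 32.4 CPM in the creErt2 references, both tight and far apart. The log2 fold change was 2.05 ± 0.35, or 4.14-fold, with an adjusted p of 0.0149. The value stayed between 1.98 and 2.11 when any single library was left out, but the call was lost without any of the 6 libraries compared (adjusted p 0.0574 to 0.103). In Math1Hoxa5-IRES-GFP Plxnd1 was 85.9, 33.8 and 71.6 CPM against 38.0, 57.6 and 21.6 CPM in the tdT references, overlapping, at 0.71 ± 0.34 with an adjusted p of 0.372. The interaction of 1.34 ± 0.48 had an unadjusted p of 0.0126 and an adjusted p of 0.556.

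Vascular markers stood higher in the same Hoxa5tdTomato libraries. The summed level of 12 endothelial markers was 180, 127 and 248 CPM in replicates 1 to 3, beside Plxnd1 at 126, 149 and 134 CPM. In the creErt2 references the endothelial sum was 10.5 to 34.6 CPM. The summed level of 8 pericyte markers was 115 to 237 CPM in Hoxa5tdTomato against 6.84 to 18.2 CPM. Of the 11 endothelial markers tested, 1 was called higher, the glucose transporter gene Slc2a1 (2.61 ± 0.48, adjusted p 0.0256 in the edgeR test). Of 8 pericyte markers 0 were called, where 0.292% of all tested genes were called higher. The median log2 fold changes were 3.42 for the endothelial and 3.56 for the pericyte markers. Kdr, the VEGF receptor of endothelium, was 26.9, 24.1 and 45.2 CPM in Hoxa5tdTomato and 3.37, 0 and 5.16 CPM in the creErt2 references. Tie1 was at 0 in all creErt2 references, and no endothelial marker was at 0 in all Hoxa5tdTomato libraries. The part of these cells in the Plxnd1 and neuropilin values of Hoxa5tdTomato was not tested, and Nrp1, Nrp2 and Plxnd1 are all known to be expressed by endothelium.

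In Math1Hoxa5-IRES-GFP the endothelial sum was 8.38, 59.1 and 9.98 CPM in replicates 1 to 3, against 3.17 to 22.4 CPM in the tdT references. The pericyte sum was 17.6, 65.4 and 5.22 CPM, against 2.00 to 27.4 CPM. Plxnd1 was highest in replicates 1 and 3, at 85.9 and 71.6 CPM, where Kdr and Cdh5, the gene of VE-cadherin, had 0 counts. It was lowest in replicate 2, at 33.8 CPM, where Kdr was 10.7 and Cdh5 7.33 CPM. Of the 12 endothelial markers, only Slc2a1 had counts in each of these libraries, at 7.36 CPM or more. Nrp2 ran the other way, at its highest in replicate 2 (384 CPM), against 261 and 328 CPM in replicates 1 and 3, and all 3 lay above every reference. The part of vascular cells in these values was not tested either.

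**Figure D4:**
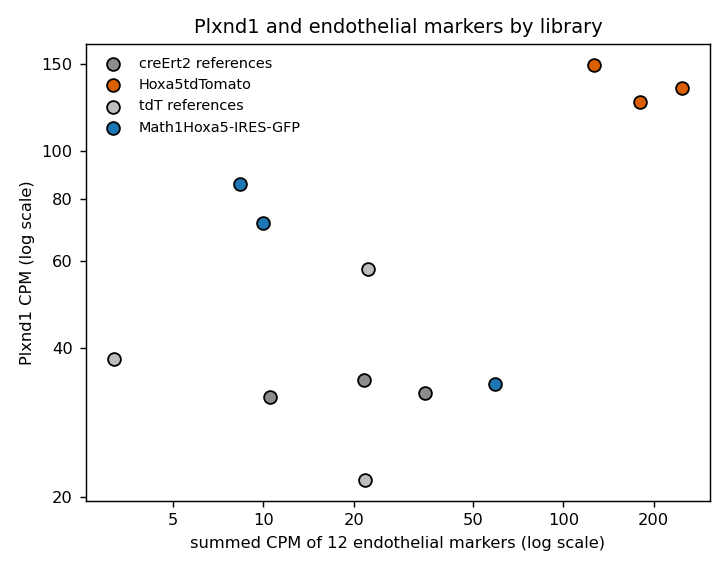
Plxnd1 in CPM against the summed CPM of 12 endothelial markers, 1 point per library, both axes logarithmic. The 3 Hoxa5tdTomato libraries are high on both axes (126 to 149 CPM of Plxnd1), while Math1Hoxa5-IRES-GFP replicates 1 and 3 have 85.9 and 71.6 CPM of Plxnd1 beside endothelial sums of 8.38 and 9.98 CPM.

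Plxnc1 (chromosome 10, 94790866 to 94945015, minus strand), the Sema7A receptor, was lower than all references of its comparison in every condition library. It was 133, 171 and 193 CPM in Hoxa5tdTomato against 212, 308 and 319 CPM in the creErt2 references. It was 169.8, 203 and 143 CPM in Math1Hoxa5-IRES-GFP against 301, 282 and 309 CPM in the tdT references. The gap was narrow in the first comparison, where the lowest reference lay just above the highest condition library, and wide in the second. The log2 differences of -0.75 ± 0.19 and -0.79 ± 0.19 had adjusted p of 0.116 and 0.0700, so neither passed. Each passed under 4 of 20 alternatives, pooling the references and DESeq2 being among them for both.

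The class B plexins did not pass in either comparison. Plxnb1 (chromosome 9, 109093849 to 109119915, plus strand), a Sema4D receptor, ranged from 61.5 to 145 CPM, with log2 differences of 0.12 ± 0.23 (adjusted p 0.978) and -0.07 ± 0.23 (0.930). Plxnb2 (chromosome 15, 89155546 to 89182018, minus strand), a receptor for Sema4C and Sema4D that acts in cerebellar granule cell precursors, was 172, 151 and 136 CPM in Math1Hoxa5-IRES-GFP against 258, 181 and 199 CPM in the tdT references, lower in all 3. Its log2 difference of -0.48 ± 0.18 had an adjusted p of 0.276. In Hoxa5tdTomato the difference was -0.22 ± 0.18 with an adjusted p of 0.852 and overlapping libraries. Plxnb3, a further class B plexin outside the 10, did not exceed 3.02 CPM.

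**Figure D5:**
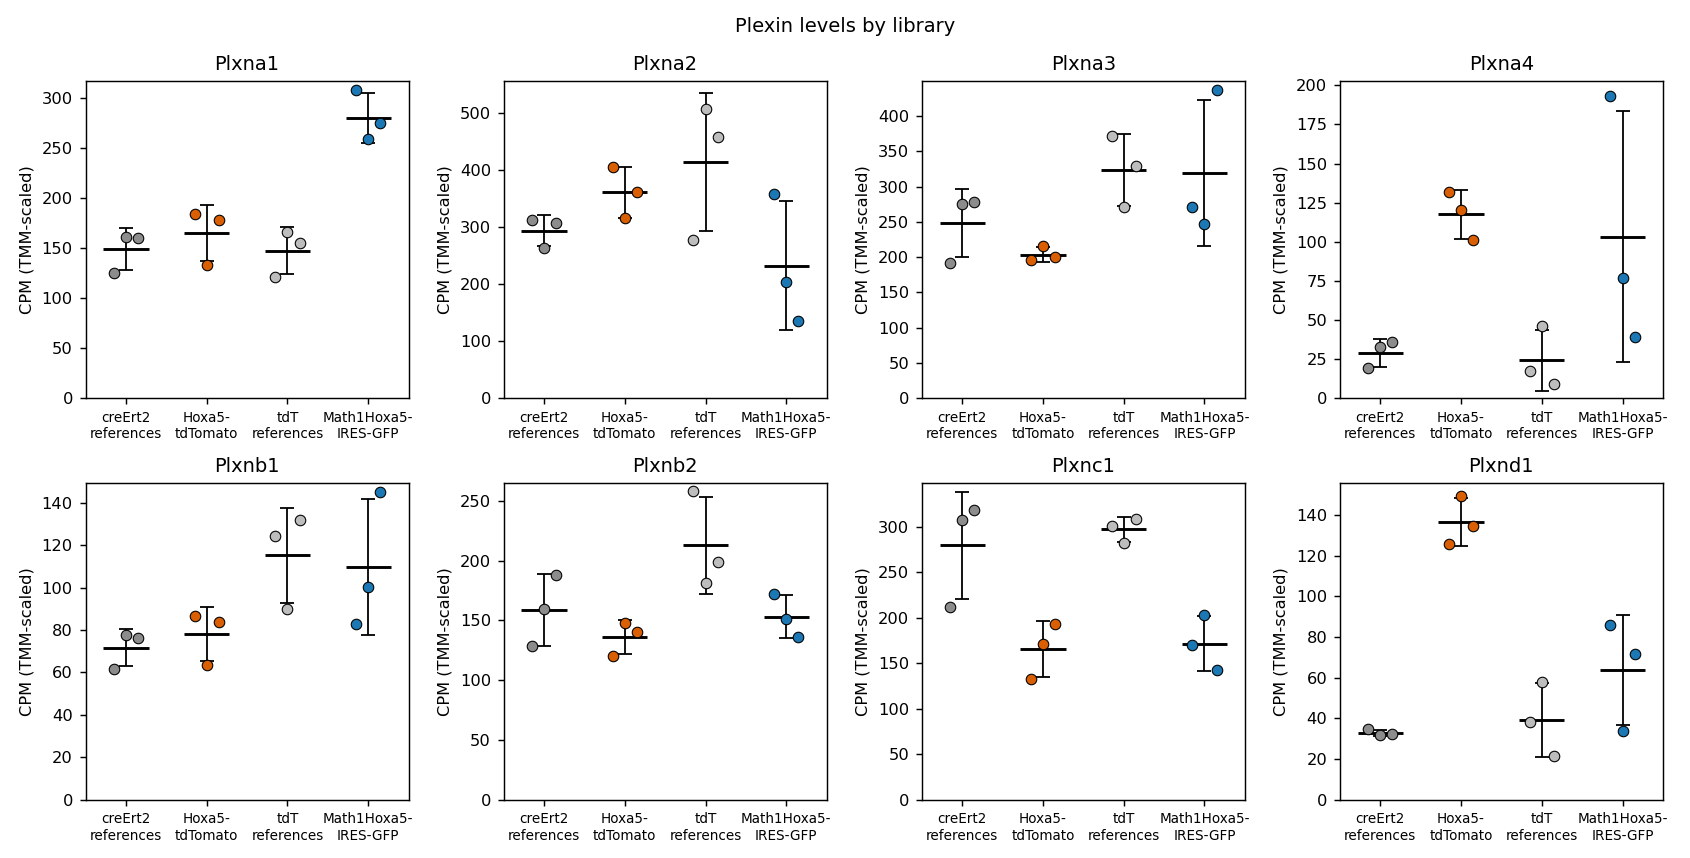
Levels of the 8 plexins in TMM-scaled CPM in each library; points are libraries, thick bars group means and whiskers 1 SD over 3 libraries, and each panel has its own y axis from 0. Plxnd1 and Plxna4 in Hoxa5tdTomato (126 to 149 and 101.002 to 132 CPM) and Plxna1 in Math1Hoxa5-IRES-GFP (258 to 307 CPM) stand above all their references, and Plxnc1 stands below its references in both conditions.

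Ranked by mean CPM per kb, Nrp1 was the most abundant of the 10 genes in every group, at 75.6 in the creErt2 references, 36.1 in Hoxa5tdTomato, 89.6 in the tdT references and 59.8 in Math1Hoxa5-IRES-GFP. In both reference groups Nrp2 ranked 8th, at 5.24 and 8.19 CPM per kb, followed by Plxnd1 (4.77 and 5.66) and Plxna4 (2.31 and 1.92). In Math1Hoxa5-IRES-GFP Nrp2 ranked 3rd at 33.7 CPM per kb, between Plxna3 at 45.1 and Plxna1 at 31.0. In Hoxa5tdTomato the top of the order was flat, with Nrp1 at 36.1, Plxna2 at 32.2 and Plxna3 at 28.8 CPM per kb, and Nrp2 stayed 8th at 17.4. The sum of all 8 plexins was 158 to 166 CPM per kb in Hoxa5tdTomato, within the 132 to 174 of its references, and 156 to 192 in Math1Hoxa5-IRES-GFP against 191 to 197.

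The references of both column names were also compared. Between the creErt2 and tdT references, 0 of 10 members were called in the edgeR test at an adjusted p of 0.05, against 1.34% of all genes, and 3 of 10 did not overlap, against 24.6% of all genes. These were Nrp1 at -0.24 ± 0.14, Nrp2 at -0.64 ± 0.24 and Plxnb1 at -0.68 ± 0.23 on the log2 scale, each lower in the creErt2 references, with adjusted p of 0.4997, 0.247 and 0.199. The median log2 difference of the family was -0.31, against 0.0048 over all genes. The gap in Nrp2 between references was smaller than its rise in either condition.

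Of the wider pathway, 69 genes in the table were followed as ligands, co-receptors and cytoplasmic signalling genes. Among 22 ligands tested, 0 were called higher and 1 lower in Hoxa5tdTomato, and 1 higher and 1 lower in Math1Hoxa5-IRES-GFP. Of all tested genes, 0.292% were called higher and 0.265% lower in Hoxa5tdTomato, and 0.536% and 0.326% in Math1Hoxa5-IRES-GFP. The ligand that fell in both was Sema6d, a class 6 semaphorin that binds class A plexins. It was 398, 364 and 442 CPM in Hoxa5tdTomato against 894, 677 and 749 CPM in the creErt2 references, at -0.95 ± 0.18 with an adjusted p of 0.0271. It was 312, 451 and 327 CPM in Math1Hoxa5-IRES-GFP against 686, 562 and 853 CPM in the tdT references, at -0.95 ± 0.18 with an adjusted p of 0.0164. Neither comparison had overlapping libraries. Sema3a, the Nrp1 ligand, did not pass in either (-0.31 ± 0.18, adjusted p 0.682, and 0.10 ± 0.18, adjusted p 0.850), nor did Sema3f, the Nrp2 ligand (0.06 ± 0.49, 0.998, and -0.14 ± 0.49, 0.937).

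Sema5a, a transmembrane semaphorin with thrombospondin repeats, was 41.5, 46.9 and 110.6 CPM in Math1Hoxa5-IRES-GFP against 22.004, 16.9 and 16.4 CPM in the tdT references, at 1.85 ± 0.41 with an adjusted p of 0.0435. Its highest value was in replicate 3, the library that stood apart. Among 10 co-receptors tested, 0 were called in Hoxa5tdTomato and 1 in Math1Hoxa5-IRES-GFP, against 0.557% and 0.862% of all tested genes. The co-receptor called was Chl1, a cell adhesion molecule of the L1 family that associates with neuropilins. It was 3492, 3091 and 2314 CPM against 1629, 1818 and 1486 CPM in the tdT references, at 0.85 ± 0.14. The adjusted p was 0.00585 in the edgeR test. Among 34 cytoplasmic genes, such as collapsin response mediators, MICAL enzymes and small GTPases, 0 passed in either comparison. Between the creErt2 and tdT references, 3 of these 34 were called lower, against 0.624% of all tested genes. They were Dpysl3 (-0.58), Dpysl5 (-0.46) and Grlf1 (-0.50), with adjusted p of 0.0420, 0.0386 and 0.0427 in the edgeR test. The median log2 fold changes in Hoxa5tdTomato were 0.10 for ligands, 0.19 for co-receptors and -0.14 for cytoplasmic genes, and those in Math1Hoxa5-IRES-GFP were 0.12, -0.16 and -0.02, against -0.01 and 0.02 over all genes.

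Genes whose log2 CPM followed Nrp1 most closely over the 12 libraries, among 9540 genes with a mean log2 CPM of at least 3, were Srrm4, a neural splicing regulator (r = 0.952), Sox11, a transcription factor of immature neurons (0.940), and Vcan, a matrix proteoglycan (0.939). For Nrp2 they were Lmo3, a LIM-only cofactor (0.967), Spock1, a proteoglycan (0.940), and Zdbf2, an imprinted gene (0.939). Libraries share group and depth in these correlations, which are a description. Nrp1 and Nrp2 correlated with each other at r = -0.48 over the same libraries.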

How the data were processed

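RNA sequencing was done on FACS-sorted pontine nucleus neurons in 12 libraries. The authors deposited raw read counts per gene for 23079 genes with each gene's length in bases, without normalization. The submitters' processing notes name genome build mm10 and bcl2fastq 1.8.4; the aligner, the counter, its annotation and its strand option are likewise not given in the sources used here. Per the labels' protocols, cDNA was amplified with SPIA (Ovation RNA-seq System V2), so reads are not independent molecules.

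The symbols and counts were used as deposited. Of the identifiers, 23008 matched the GRCm38.p6 annotation, which gave gene positions. The 15 entries without a symbol held 0.00106% of counts and went through the same filter as all other genes. Genes passed filterByExpr at a minimum count of 10 (14732 genes). Counts were scaled by TMM and tested by quasi-likelihood in edgeR 4.0.16 (R 4.3.3, limma 3.58.1), with 1 mean for each of 4 column-name groups of 3 libraries and the spread shared by all 12. Contrasts were each condition against the references paired with it by column name, creErt2 against tdT references, and the difference between both condition effects. P-values were Benjamini-Hochberg adjusted over 14732 genes and held against 0.05; the standard error is the log2 fold change divided by the root of F. The balance was the log2 ratio of counts per base of Nrp1 and Nrp2, tested by exact permutation.

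The 6 reference columns carry numbers 1 to 3 under each column name and were used by group. No library duplicated another. All 10 members are named; of the pathway lists, each gene past the threshold; Sema3a and Sema3f were named after their values were seen. For Nrp1 and Nrp2 the 3 genes with the highest correlation are named. Members and lists were chosen with earlier results of these data known. Marker lists for other cell types were summed; beside the vascular lists, the summed CPM in Hoxa5tdTomato and the creErt2 references was 13.2 to 30.3 and 2.49 to 7.43 for meninges, 7.81 to 54.4 and 3.08 to 9.60 for microglia, 389 to 668 and 487 to 548 for astrocytes, 79.4 to 99.3 and 51.3 to 81.7 for the oligodendrocyte lineage, 8.01 to 39.0 and 2.58 to 8.33 for dividing cells, 121 to 222 and 160.5 to 202 for GABAergic neurons, and 8734 to 9001 and 11692 to 12486 for pontine and glutamatergic neurons. In Math1Hoxa5-IRES-GFP and the tdT references the same sums were 0.702 to 16.9 and 2.14 to 14.9, 0 to 6.07 and 0.321 to 15.3, 228 to 298 and 192 to 395, 39.6 to 72.6 and 39.9 to 52.9, 6.67 to 13.2 and 3.49 to 27.5, 163 to 431 and 162 to 313, and 12660 to 16076 and 12600 to 15594. Alternatives were RLE and library-size scaling, no filter, pooled references, fits of 6 libraries, a replicate block, thinning, DESeq2 1.42.0 and leaving out each library. The edgeR fit was run on simulated counts drawn with the spread that the same fit had estimated. Such a run checks the code and does not show how well the real libraries meet the model.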

Additional observations from a re-analysis of the deposited data

Results flagged for a closer look

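In groups of 4 to 10 libraries, a value was taken up when its gap to the nearest other, relative to the range, passed Dixon's 95% limit, which chance passes in about 1 of 20 groups. Of 11 values examined in the 6 reference libraries, 3 did so, and 2 of these share the same Nrp2 counts. Nrp2 in tdT reference replicate 3, at 108 CPM, stood above the other 5 references, and the log2 ratio of Nrp1 to Nrp2 of that library, 3.03, stood below theirs. Plxnc1 in creErt2 reference replicate 1, at 212 CPM, stood below the other 5.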

How the results depend on the processing

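The number of genes past the threshold depends on the fit. Hoxa5tdTomato against creErt2 references gave 82 genes (43 higher, 39 lower), Math1Hoxa5-IRES-GFP against tdT references 127 (79 and 48), creErt2 against tdT references 197 (105 and 92), and the difference between comparisons 0. Pooling the references gave 255 and 271 for the first and second comparison, fits of only the 6 libraries 980 and 10, and DESeq2 270, 558, 589 and 54 over all 4. Leaving out 1 library gave 19 (without Hoxa5tdTomato replicate 1) to 364, 52 (without tdT reference replicate 3) to 365, 38 (without tdT reference replicate 1) to 784, and 0 to 3; the highest of each of the first 3 ranges came without Math1Hoxa5-IRES-GFP replicate 3, and the first count was 19 to 25 without any of its own 6 libraries. With library size as the only scaling the splits were 47 and 19, 45 and 48, and 139 and 48, and with RLE factors the first was 43 and 25; library size moved the median of all genes to 0.10, -0.05 and 0.10, and to 0.15 for the difference.

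Replicate numbers gave correlations of -0.03 to 0.05 between same-numbered libraries of a comparison, and of -0.10 to 0.09 between different-numbered ones. In Hoxa5tdTomato with the creErt2 references the same-numbered values were 0.023, 0.015 and 0.026, against -0.042 to 0.018. No clear pairing was seen, and with 3 libraries per group this measure cannot exclude it. A replicate block gave 72, 77, 1 and 0 genes.

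Among member values, none of them past the threshold, signs turned as follows. With library size, Plxnc1 between references was 0.0083 and Plxna4 in the difference 0.086. With pooled references, Plxnb1 was -0.26 in Hoxa5tdTomato and 0.23 in Math1Hoxa5-IRES-GFP, and Plxna3 0.16 in the latter. With the replicate block Plxna4 between references was -0.28. Over the fits that leave out 1 library, Math1Hoxa5-IRES-GFP values ran from -0.32 to 0.13 for Plxna3 and -0.33 to 0.093 for Plxnb1. Values between references ran from -0.11 to 0.12 for Plxna1, -0.13 to 1.14 for Plxna4, -0.20 to 0.072 for Plxnc1 and -0.54 to 0.13 for Plxnd1. Those of the difference ran from -0.42 to 0.032 for Plxna3, -0.93 to 0.75 for Plxna4 and -0.12 to 0.20 for Plxnc1. The cause was not tested in any of these. The balance kept its direction in all alternatives run, at -2.90 to -2.61 and -2.89 to -2.52 without single libraries.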
